A study of Mus musculus with 2 samples.

Results

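Barcodes carrying *Lhx6* and *Nxph1* transcripts were examined in single cell RNA sequencing of the E14.5 mouse dorsal telencephalon and set against the other GABAergic barcodes of the same libraries. In the developing forebrain, cortical interneurons arise ventrally, in the medial and caudal ganglionic eminences (MGE and CGE), and reach the cortex by tangential migration, whereas the lateral ganglionic eminence (LGE) mainly supplies striatal and olfactory bulb neurons. MGE-derived interneurons keep the LIM homeodomain factor gene *Lhx6* after leaving the ventricular zone and later give rise to the somatostatin and parvalbumin classes. *Nxph1* encodes neurexophilin 1, a secreted ligand of alpha-neurexins, and marks the same lineage during migration.

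Each of 2 WT samples, named replicates 1 and 3 after their labels, gave 1 droplet-based 3′ library, both from control embryos of the EomesMllt3 line, a line that the series ties to Eomes-Cre. No mutant allele, agent or reporter was given for either sample, and nothing in the labels says whether a library came from 1 embryo or from several. Both libraries formed 1 group, so all comparisons were made between barcodes within them, and the p-values measure only the spread between these 2 libraries. The labels name brain hemispheres as the tissue and the protocol names dorsal telencephalon. Unique molecular identifiers (UMIs), each marking a captured RNA molecule, had been counted per gene and barcode, with 64182006 UMIs over 6163 barcodes in replicate 1 and 93295807 UMIs over 8870 barcodes in replicate 3.

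A barcode was kept with 1500 to 60000 UMIs and under 10% mitochondrial UMIs, which left 5453 barcodes of replicate 1 and 7483 of replicate 3. A kept barcode was called MGE when *Gad1*, *Gad2* and *Dlx6os1* together had at least 3 UMIs, *Lhx6* and *Nxph1* together at least 2, and the projection neuron genes *Neurod2* and *Neurod6* together at most 2. In all, 575 barcodes of 15033 met this rule, 363 in replicate 1 and 212 in replicate 3. Other GABAergic barcodes passed the same gates with at most 1 UMI of *Lhx6* and *Nxph1*, and these numbered 390, 348 in replicate 1 and 42 in replicate 3. The barcodes were thus chosen by the UMIs of these 7 genes, whose values are given as a description without a test.

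The 2 libraries differed in their make-up. MGE barcodes were 6.66% of the kept barcodes of replicate 1 (95% Wilson interval 6.03 to 7.35) and 2.83% of those of replicate 3 (2.48 to 3.23). Other GABAergic barcodes were 6.38% in replicate 1 and 0.561% in replicate 3. MGE barcodes therefore made up 51.1% of the GABAergic barcodes of replicate 1 (47.4 to 54.7) and 83.5% of those of replicate 3 (78.4 to 87.5). These intervals cover counting error only. The libraries shared 23 barcode sequences.

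**Figure D1:**
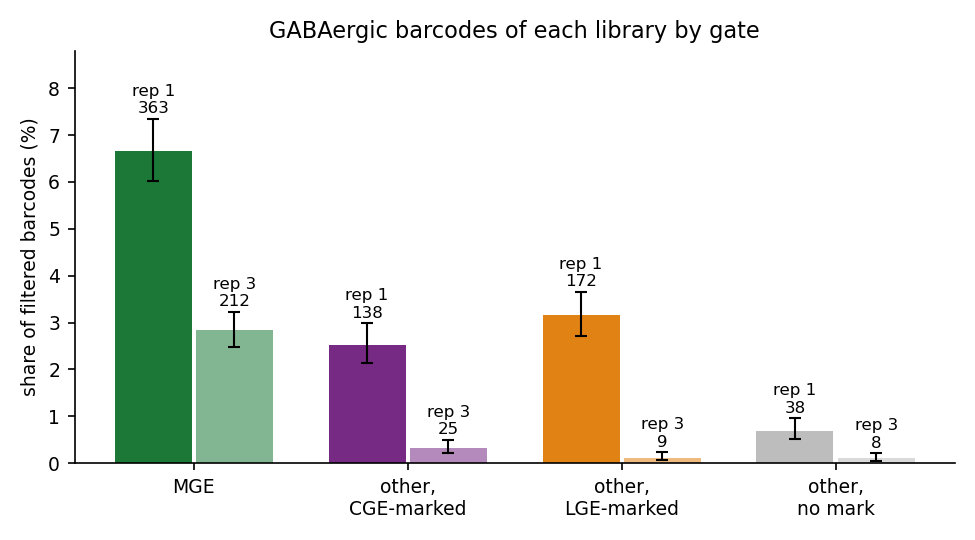
Share of filtered barcodes (%) in each gate, with 95% Wilson intervals and the number of barcodes above each bar, for replicate 1 (full colour) and replicate 3 (pale). MGE barcodes numbered 363 and 212, whereas only 9 LGE-marked barcodes were found in replicate 3.

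*Nxph1* carried most of the gate. It held a median of 25 UMIs per MGE barcode in replicate 1 and 21.5 in replicate 3, and 5801 and 5409 CPM (UMIs of a gene per 1000000 UMIs of the sum over the gate's barcodes). *Lhx6* held a median of 1 UMI in both and 216 and 258 CPM. Both genes were detected in 217 MGE barcodes of replicate 1 and 144 of replicate 3, *Nxph1* alone in 143 and 68, and *Lhx6* alone in 3 and 0. *Nxph1* UMIs exceeded *Lhx6* UMIs in 349 and 210 barcodes, and *Lhx6* UMIs exceeded *Nxph1* UMIs in 6 and 0. At these depths an *Lhx6* count of 0 in a barcode does not show that the transcript was absent. In MGE barcodes without an *Lhx6* UMI, the CGE gene *Adarb2* stood at 1229 and 436 CPM. With *Lhx6* detected it stood at 199 and 28.3 CPM. *Maf* stood at 417 and 382 CPM without an *Lhx6* UMI and at 514 and 423 CPM with *Lhx6* detected. Median depth was 4134 and 3282.5 UMIs against 5380 and 4866.5, and the part of depth in this split was not tested.

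Few barcodes lay at the border of the rule. Just inside it, 14 barcodes of replicate 1 and 4 of replicate 3 had exactly 2 UMIs of *Lhx6* and *Nxph1*, and 5 and 4 had 3. Just outside it, 25 and 3 of the other GABAergic barcodes had 1 such UMI, while 323 and 39 had none. A further 90 kept barcodes of replicate 1 and 62 of replicate 3 reached 2 UMIs of *Lhx6* and *Nxph1* but not the GABAergic gate, and 39 and 31 were left out by the Neurod gate. Of the markers given with the cell type, *Gad2* stood at 785 and 687 CPM in MGE barcodes, against 660 and 455 CPM in the other GABAergic barcodes. *Dlx6os1*, a noncoding RNA of the *Dlx5* and *Dlx6* locus, stood at 987 and 864 CPM against 1444 and 805 CPM.

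Other GABAergic barcodes were split by further genes. Those with at least 2 UMIs of *Adarb2*, *Prox1*, *Sp8* and *Htr3a* and more of these than of LGE genes were called CGE-marked (138 in replicate 1 and 25 in replicate 3). Those with at least 2 UMIs of 9 LGE and striatal genes (among them *Isl1*, *Ebf1*, *Foxp1*, *Foxp2*, *Zfp503* and *Penk*) and more of these were called LGE-marked (172 and 9), and 38 and 8 had no mark. The LGE-marked sum of replicate 3 rests on 9 barcodes and 73345 UMIs, and each value from it is correspondingly coarse. Neurod-gated barcodes, with at least 3 UMIs of *Neurod2* and *Neurod6* and none of *Gad1*, *Gad2* or *Dlx6os1*, served as a background of another cell type (3051 and 4199).

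Depth was similar in the GABAergic gates. The median was 4884 UMIs per MGE barcode in replicate 1 and 4313 in replicate 3, against 5090 and 5019 for other GABAergic barcodes, whereas Neurod-gated barcodes held 11658 and 11362. Ribosomal protein UMIs were a median 2.71% and 2.59% in MGE barcodes against 3.99% and 3.51% in the other GABAergic barcodes, and mitochondrial UMIs were 4.78% and 5.52% against 4.33% and 4.96%. At least 3 UMIs of 8 progenitor and cell cycle genes (among them *Mki67*, *Top2a*, *Hes5* and *Slc1a3*) were found in 5.79% and 8.96% of MGE barcodes and in 21.3% and 16.7% of the other GABAergic barcodes. The part of these differences in the comparisons of genes was not tested, apart from repeats at equal depth and without progenitor barcodes.

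Sequences before the starts of the peptide and neurexophilin genes *Sst*, *Npy* and *Nxph2* are shown because these genes had high fold changes in MGE barcodes in each comparison that follows. They are the 60 bases before the RefSeq start (GRCm38.p6), 5′ to 3′ on the gene's strand, with the cyclic AMP response element TGACGTCA (CRE, which reads alike on both strands) in capitals where it occurs. *Sst* lies at chr16:23890845-23890904 on the minus strand, *Npy* at chr6:49822650-49822709 on the plus strand and *Nxph2* at chr2:23321186-23321245 on the plus strand.
Sst: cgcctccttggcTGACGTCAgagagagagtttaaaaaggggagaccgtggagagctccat
Npy: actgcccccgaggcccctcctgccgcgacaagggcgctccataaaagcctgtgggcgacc
Nxph2: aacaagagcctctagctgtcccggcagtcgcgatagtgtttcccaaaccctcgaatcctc

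The element starts at base -48 in *Sst*, the gene in which it is classically known, and these letters are not in the *Npy* or *Nxph2* windows of 250 bases. They are found in 1.55% of all 32851 windows of 250 bases before a start and in 2.77% of the windows of the genes tested. Among the genes higher in MGE barcodes than in other GABAergic barcodes, 94 of 129 had a window, and *Sst* was the 1 gene holding the element. The homeodomain core TAATTA, searched on both strands, was found in windows of 5 of these 94 genes, or 3.18% of their windows, against 2.38% of the windows of the genes tested and 4.84% of all windows. A match is a description of letters and not of binding.

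MGE barcodes and other GABAergic barcodes differed in a limited set of genes. UMIs were summed per gate and replicate, giving 4 sums, and edgeR's quasi-likelihood test was run on 10856 genes, with p-values adjusted over all of them after Benjamini and Hochberg. Of these, 183 passed an adjusted p of 0.05 (1.69%), 129 higher (1.19%) and 54 lower (0.497%) in MGE barcodes. All 183 had the same direction in both replicates, which a call over 2 libraries favours, so this is no separate support. In simulated data the share of false calls was above the adjusted threshold, so the called genes are not held to an error share of 0.05. The higher genes included 6 of 13 tested transcription factors of the MGE lineage, the peptide genes *Sst* and *Npy*, *Nxph2*, the chemokine receptor gene *Ackr3* and 4 of 17 tested glutamate receptor subunit genes. *Isl1* and *Tshz1* of LGE and striatal cells and 3 cell cycle genes were lower. With the replicate number as a block, 423 genes passed, 230 higher and 193 lower. The balance of higher and lower genes depended on the setting, with 136 higher and 94 lower in DESeq2, 191 and 207 without predicted doublets, and 326 and 544 without CGE- or LGE-marked MGE barcodes.

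Transcription factors of the MGE lineage were the first group. Of 14 listed genes 13 were tested, and 6 were higher and 1 lower, with a median log2 fold change of 1.23 against 0.00 over all genes. *Sox6*, an SRY-box factor that acts downstream of *Lhx6*, had 2061 and 2098 CPM in MGE barcodes of replicates 1 and 3 and 419 and 459 CPM in the other GABAergic barcodes, which gave a log2 fold change of 2.36 ± 0.16 (± SE here and throughout; adjusted p = 0.00349). *Maf*, a bZIP factor gene of MGE-derived interneurons, had 481 and 414 CPM against 45.0 and 52.2 CPM (3.32 ± 0.19; adjusted p = 0.00344). In both genes the values of the 2 libraries lay close together within MGE barcodes.

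*Satb1*, encoding a chromatin organiser required for maturation of somatostatin interneurons, had 326 and 451 CPM in MGE barcodes against 59.4 and 131 CPM (log2 fold change 2.32 ± 0.37; adjusted p = 0.0397), and its call was lost under 5 of the 15 alternatives tested. *Mef2c*, a MADS-box factor gene of prospective parvalbumin interneurons, had 1047 and 1106 CPM against 235 and 183 CPM (2.44 ± 0.19; adjusted p = 0.00385). *Zeb2*, a zinc finger factor that directs migrating interneurons toward the cortex, had 2270 and 2230 CPM against 1050 and 842 CPM (1.35 ± 0.18; adjusted p = 0.0203). Its level in Neurod-gated barcodes was close to that of other GABAergic barcodes, at 1043 and 887 CPM. *Zfhx3*, a zinc finger homeodomain factor gene listed with this group, was the 1 lower member, with 21.7 and 7.32 CPM in MGE barcodes against 576 and 440 CPM (-4.82 ± 0.41; adjusted p = 0.00527). *Nkx2-1* and *Lhx8*, which mark MGE progenitors and ventral derivatives, were near 0, at 7.07 and 1.63 CPM and at 2.36 and 0 CPM in MGE barcodes.

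Transcription factors shared by GABAergic lineages did not pass the test. Of 14 listed genes 12 were tested and 0 were called, while 6 of them had an unadjusted p under 0.05 in edgeR's quasi-likelihood test. Over all 10856 genes, 183 were called (1.69%) and 1617 had an unadjusted p under 0.05 in that test. The median log2 fold change of the list was -0.44. *Dlx1*, a distal-less homeobox factor gene, had 234 and 203 CPM in MGE barcodes and 336 and 261 CPM in the other GABAergic barcodes (log2 fold change -0.36 ± 0.19; adjusted p = 0.438). It stood at 2.0 and 0.628 CPM in Neurod-gated barcodes.

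**Figure D2:**
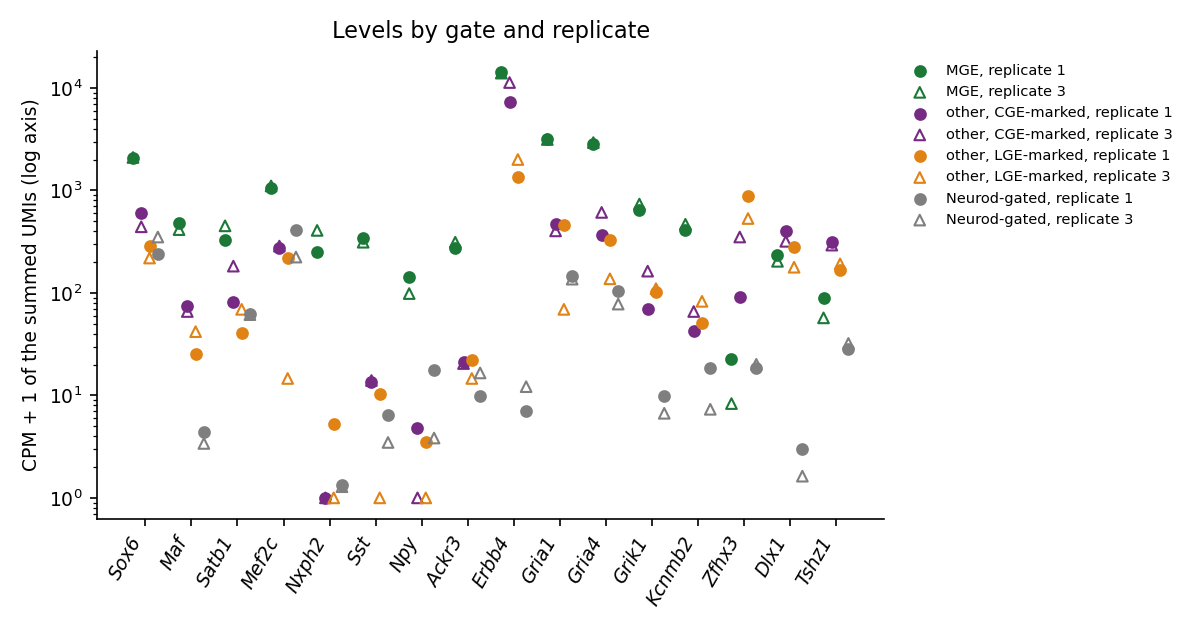
CPM + 1 of the summed UMIs (log axis) of 16 genes in MGE, CGE-marked, LGE-marked and Neurod-gated barcodes, with filled circles for replicate 1 and open triangles for replicate 3. MGE barcodes were highest in both replicates for genes such as *Maf* (481 and 414 CPM), *Nxph2* (252 and 407 CPM) and *Gria1* (3161 and 3142 CPM), and low for *Zfhx3* (21.7 and 7.32 CPM).

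Markers of later interneuron subtypes were detected only in part at this stage. Of 21 listed genes 8 had enough counts to test, and 3 were higher and 0 lower. *Sst*, the somatostatin gene, had 343 and 312 CPM in MGE barcodes against 10.7 and 7.45 CPM (log2 fold change 4.93 ± 0.22; adjusted p = 0.00331). *Npy*, encoding neuropeptide Y, had 143 and 97.6 CPM against 5.57 and 0 CPM (4.40 ± 0.42; adjusted p = 0.00832). *Elfn1*, a postsynaptic organiser gene of somatostatin interneurons, had 68.3 and 48.8 CPM against 11.6 and 3.73 CPM (2.48 ± 0.36; adjusted p = 0.0313). *Pvalb*, the parvalbumin gene, had 0 UMIs in every gate of both libraries.

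Free RNA was considered for these peptides. At 2000 UMIs per barcode, drawn without replacement, *Sst* was detected in 16.5% and 24.4% of MGE barcodes (n = 352 and 197), in 2.40% and 2.56% of other GABAergic barcodes (n = 334 and 39) and in 1.48% and 0.478% of Neurod-gated barcodes (n = 3048 and 4188). *Npy* was detected in 14.8% and 14.7%, in 1.5% and 0%, and in 2.13% and 0.334%. The *Npy* share of other GABAergic barcodes did not exceed that of Neurod-gated barcodes, the *Sst* share did so by 8 of 334 barcodes against 1.48% and by 1 of 39 against 0.478%, and neither is read as expression. *Maf* was detected in 57.7% and 52.8% of MGE barcodes and in 0.525% and 0.334% of Neurod-gated barcodes, and *Ackr3* in 46.0% and 51.3% and in 1.77% and 2.84%. Without thinning, the *Sst* shares of MGE barcodes were 24.2% and 34.0% and those of *Maf* 76.6% and 73.6%.

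**Figure D3:**
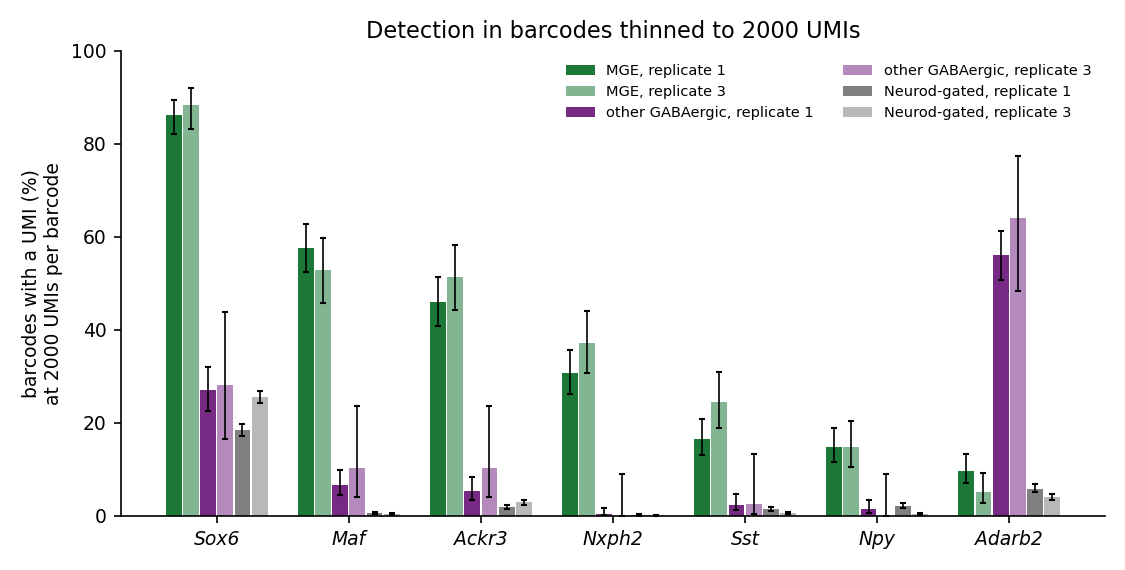
Share of barcodes with at least 1 UMI (%) after thinning to 2000 UMIs per barcode, with 95% Wilson intervals, in MGE, other GABAergic and Neurod-gated barcodes of replicate 1 (full colour) and replicate 3 (pale). *Nxph2* was found in 30.7% and 37.1% of MGE barcodes and in 0.299% and 0% of other GABAergic barcodes, and *Adarb2* in 9.66% and 5.08% against 56.0% and 64.1%.

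Neurexophilin 2 had the highest fold change of all genes called. *Nxph2* encodes a secreted relative of the *Nxph1* product, was not part of the rule, and had 534 and 500 UMIs in MGE barcodes against 8 and 0 in the other GABAergic barcodes (252 and 407 CPM against 3.71 and 0 CPM). Its log2 fold change was 6.25 ± 0.45 with an adjusted p of 0.00349. It was found in 0.0984% and 0.0716% of Neurod-gated barcodes at 2000 UMIs per barcode. Of the 7 tested neurexophilins, neurexins and neuroligins it was the only 1 called, and *Nrxn3*, encoding a neurexin, stood at 21023 and 17705 CPM in MGE barcodes against 15607 and 14004 CPM (0.50 ± 0.17; adjusted p = 0.251).

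Migration receptors changed in few members. Of 31 listed receptors and cues 28 were tested, 2 were higher and 1 lower, and the median log2 fold change was 0.18. *Ackr3*, an atypical receptor that takes up the chemokine CXCL12 and keeps migrating interneurons responsive to it, had 275 and 312 CPM in MGE barcodes against 27.4 and 29.8 CPM (3.43 ± 0.19; adjusted p = 0.00344). The signalling receptor of the same chemokine, *Cxcr4*, had 35.3 and 42.3 CPM against 16.2 and 7.45 CPM (1.43 ± 0.32; adjusted p = 0.103). *Erbb4*, the neuregulin receptor gene of migrating interneurons, had 14319 and 13972 CPM against 3745 and 7507 CPM (1.45 ± 0.31; adjusted p = 0.0962), and 1.53 with an adjusted p of 0.0140 under the replicate block. *Epha5*, an ephrin-A receptor gene, was higher (4996 and 4461 CPM against 1460 and 1491 CPM; 1.79 ± 0.16; adjusted p = 0.00606), and *Ephb1*, an ephrin-B receptor gene, was lower (25 and 39.0 CPM against 288 and 153 CPM; -2.74 ± 0.35; adjusted p = 0.0198).

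Glutamate receptor subunits were higher in 4 of 17 genes tested and lower in 0. The AMPA receptor subunit gene *Gria1* had 3161 and 3142 CPM in MGE barcodes against 458 and 294 CPM (log2 fold change 3.14 ± 0.25; adjusted p = 0.00389). *Gria4*, another AMPA receptor subunit gene, had 2811 and 2933 CPM against 342 and 451 CPM (2.98 ± 0.19; adjusted p = 0.00349). The kainate receptor subunit gene *Grik1* had 643 and 735 CPM against 81.7 and 127 CPM (2.91 ± 0.24; adjusted p = 0.0047), and *Grik2* had 1946 and 1965 CPM against 752 and 742 CPM (1.5 ± 0.15; adjusted p = 0.0101). The median of the list was 0.29, so these 4 stood above most of its members.

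Genes of inhibition and excitability followed with 1 to 3 called members each. *Gabrg3*, a GABA-A receptor subunit gene, was the only 1 of 10 tested GABA receptor genes called (267 and 219 CPM against 78.9 and 41.0 CPM; log2 fold change 1.93 ± 0.27; adjusted p = 0.0274). Among 22 tested ion channel genes, *Kcnmb2*, a BK channel beta subunit gene, was higher at 409 and 467 CPM against 48.3 and 67.1 CPM (3.1 ± 0.21; adjusted p = 0.00349). *Kcnc2*, encoding a Kv3 channel typical of fast-spiking interneurons, was higher at 547 and 407 CPM against 89.6 and 138 CPM (2.26 ± 0.26; adjusted p = 0.0154), and *Kcnip1*, encoding a Kv4 channel partner, at 198 and 246 CPM against 74.7 and 70.8 CPM (1.68 ± 0.19; adjusted p = 0.0135). Of 21 contactins and cadherins tested, the protocadherin genes *Pcdh8* and *Pcdh19* were higher, by 1.85 ± 0.29 (adjusted p = 0.0373) and 2.19 ± 0.24 (adjusted p = 0.0125). *Pcdh8* lost its call under 5 of the 15 alternatives.

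Genes of LGE cells, of CGE cells and of the cell cycle lay below 0 on the whole. Of 10 tested LGE and striatal genes, *Isl1*, a LIM homeodomain factor gene of striatal neurons, had 1.41 and 0.813 CPM against 78.4 and 22.4 CPM (-4.50 ± 0.59; adjusted p = 0.0207), and *Tshz1*, a zinc finger factor gene, had 88.6 and 56.1 CPM against 217 and 246 CPM (-1.51 ± 0.24; adjusted p = 0.0404). Their median was -3.12, while *Meis2* and *Foxp2* had -2.35 ± 0.49 (adjusted p = 0.0883) and -2.83 ± 0.50 (adjusted p = 0.0601) and *Foxp1* -1.41 ± 0.61 (adjusted p = 0.352), with 0.26 in replicate 3 alone. The 5 tested CGE genes had a median of -2.13 and 0 calls, although 4 had an unadjusted p under 0.05 in edgeR's quasi-likelihood test. Over all genes tested, 1617 of 10856 had such an unadjusted p. *Adarb2* stood at 549 and 120 CPM in MGE barcodes against 3036 and 4193 CPM (-3.30 ± 0.66; adjusted p = 0.079), and *Prox1* at 14.1 and 6.51 CPM against 77.0 and 37.3 CPM (-2.31 ± 0.43; adjusted p = 0.0696). With the replicate block all 4 of *Meis2*, *Foxp2*, *Adarb2* and *Prox1* passed, at adjusted p-values of 0.00905, 0.00296, 0.0146 and 0.00887. *Adarb2* stood at -8.15 when MGE barcodes with a CGE or LGE mark, which *Adarb2* helps to set, were left out.

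Of 15 progenitor and cell cycle genes, *Top2a*, *Cdk1* and *Ube2c*, which act in chromosome decatenation, mitotic entry and cyclin degradation, were lower by -2.61 ± 0.40, -2.12 ± 0.30 and -1.94 ± 0.22 (adjusted p = 0.0348, 0.0284 and 0.0135). Their CPM in MGE barcodes were 21.7 and 54.5, 12.3 and 13.8, and 26.4 and 37.4. The summed level of this list was 622 and 1010 CPM in MGE barcodes, 2048 and 2445 CPM in other GABAergic barcodes and 761 and 1104 CPM in Neurod-gated barcodes. MGE barcodes thus lay near or below Neurod-gated barcodes, and the other GABAergic barcodes lay above both. In a repeat that left out barcodes with at least 3 UMIs of 8 progenitor and cell cycle genes, 273 genes passed. *Ube2c* then stood at -0.65 ± 0.46 and was no longer called (adjusted p = 0.633), and *Top2a* and *Cdk1* had too few UMIs left to be tested. All of *Top2a*, *Cdk1* and *Ube2c* are among those 8 genes. Their loss was thus partly set by the choice of barcodes and is no separate test of the part of progenitors.

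Several lists showed 0 calls. None of 15 tested DNA methylation and chromatin genes passed edgeR's quasi-likelihood test, and 3 had an unadjusted p under 0.05 there. Of all 10856 genes tested, 183 passed (1.69%) and 1617 had such an unadjusted p, so 0 calls in a list this short says little about its members. *Dnmt1*, encoding the maintenance DNA methyltransferase on which the study centres, had 44.8 and 42.3 CPM in MGE barcodes against 64.5 and 67.1 CPM (-0.46 ± 0.19; adjusted p = 0.325) and 43.6 and 40.0 CPM in Neurod-gated barcodes. Dissociation stress genes (8 tested), nuclear long noncoding RNAs (6 tested) and projection neuron genes (7 tested) also had 0 calls, with medians of 0.03, 0.08 and 0.27. Projection neuron genes summed to 441 and 333 CPM in MGE barcodes, 493 and 596 CPM in other GABAergic barcodes and 5833 and 5355 CPM in Neurod-gated barcodes.

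Beyond the lists, the genes with the highest fold changes included *Dpp10*, encoding a Kv4 channel auxiliary subunit, with 2333 and 2801 CPM in MGE barcodes against 108 and 59.6 CPM (log2 fold change 4.90 ± 0.30; adjusted p = 0.00344). *Thbs1*, encoding the extracellular matrix protein thrombospondin 1, had 67.4 and 69.1 CPM against 1.86 and 3.73 CPM (4.40 ± 0.31; adjusted p = 0.00349). *Cntnap3*, a contactin-associated protein gene, had 183 and 227 CPM against 13.9 and 3.73 CPM (4.02 ± 0.31; adjusted p = 0.00389), and *Ism1*, encoding the secreted protein isthmin 1, had 36.3 and 59.4 CPM against 1.86 and 0 CPM (4.09 ± 0.48; adjusted p = 0.0156). Each of these genes was higher in MGE barcodes in both replicates, which the rule for naming them required. All but *Ism1* kept their call under the 15 alternatives.

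The lowest fold changes included *Sorcs3*, a sortilin-family receptor gene, with 21.7 and 14.6 CPM against 255 and 544 CPM (-4.15 ± 0.42; adjusted p = 0.0108). *Nr3c2*, the mineralocorticoid receptor gene, had 7.54 and 2.44 CPM against 79.4 and 119 CPM (-3.69 ± 0.41; adjusted p = 0.0135). *Zfhx4*, a relative of *Zfhx3*, had 19.8 and 40.7 CPM against 401 and 194 CPM (-3.26 ± 0.44; adjusted p = 0.0239), and *Insm1*, a zinc finger factor gene of newborn neurons, had 6.60 and 2.44 CPM against 64.5 and 67.1 CPM (-3.31 ± 0.37; adjusted p = 0.0134). *Slc18a2*, encoding a vesicular monoamine transporter, *Spon1*, an extracellular matrix gene, and the linker histone gene *Hist1h1b* fell by 3.07 ± 0.35, 2.93 ± 0.27 and 2.91 ± 0.36 (adjusted p = 0.0138, 0.00739 and 0.018). For *Six3os1*, an antisense RNA of *Six3*, MGE barcodes held 3 UMIs in all against 87, a ratio of 40.1 (exact 95% counting interval 13.3 to 198), and reads of the *Six3* locus can only be assigned where counting used strand.

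Globin genes, which belong to red blood cells, were also called. *Hba-a1*, *Hba-a2*, *Hbb-bs* and *Hbb-bt* had log2 fold changes of 4.42 ± 0.47, 5.0 ± 0.54, 3.87 ± 0.42 and 4.63 ± 0.49 (adjusted p = 0.0121 to 0.0125 in edgeR's quasi-likelihood test). Their sum was 7634 and 10597 CPM in MGE barcodes, 331 and 824 CPM in other GABAergic barcodes and 583 and 623 CPM in Neurod-gated barcodes. Only 2 MGE barcodes of replicate 1 and 1 of replicate 3 had over 100 globin UMIs, and these 3 held 96.7% and 91.6% of all globin UMIs of the gate. The median was 1 and 5 globin UMIs per MGE barcode and equally 1 and 5 per other GABAergic barcode. Without barcodes of 10 or more globin UMIs, an alternative chosen after seeing the data, the 4 genes were no longer called (log2 fold changes 0.25 to 0.74) and 198 genes passed in all. Those barcodes were picked by the UMIs of these same 4 genes, so the loss of their calls is no separate test. The same 4 genes were also called against CGE-marked and against LGE-marked barcodes. Microglial *C1qa* and *C1qb* were at 8.48 and 10.4 CPM in MGE barcodes of replicate 1 and at 45.5 and 38.1 CPM in the other GABAergic barcodes.

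Against CGE-marked barcodes, a smaller group of 138 and 25 barcodes of the other interneuron lineage, fewer genes passed in a separate fit. MGE, CGE-marked and LGE-marked sums entered 1 fit of 6 sums in which the rule and split genes were left out of the test, and the comparisons with each marked group share the MGE sums. Of 10028 genes tested, 41 were called (0.409%), 31 higher (0.309%) and 10 lower (0.0997%) in MGE barcodes than in CGE-marked barcodes. With the replicate block 77 were called. The lower number did not hold under every setting. With the gate on counts thinned to 1500 UMIs, 292 genes passed against CGE-marked barcodes and 72 against all other GABAergic barcodes. The part of group size in these numbers was not tested. The higher genes included *Maf*, the peptides, *Nxph2*, *Ackr3*, *Grik1* and *Kcnmb2*, and also the 4 globin genes. Of 12 tested transcription factors of the MGE lineage 2 were higher, with a median log2 fold change of 0.43. Genes called against all other GABAergic barcodes but not here included *Mef2c*, *Zeb2*, *Epha5*, *Gabrg3* and *Kcnc2*. *Gria1* and *Gria4* had 2.92 ± 0.64 and 2.65 ± 0.46 without passing (adjusted p = 0.173 and 0.0667 in edgeR's quasi-likelihood test).

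*Maf* had 74.4 and 64.9 CPM in CGE-marked barcodes, a log2 fold change of 2.69 ± 0.28 (adjusted p = 0.00727). *Sox6* and *Satb1* lay in the same direction without passing, with 606 and 441 CPM (2.05 ± 0.33; adjusted p = 0.0514) and 80.7 and 182 CPM (1.77 ± 0.39; adjusted p = 0.173) in CGE-marked barcodes, and both passed with the replicate block (adjusted p = 0.0276 and 0.0338). *Sst* had 12.6 and 13.0 CPM (4.54 ± 0.36; adjusted p = 0.00547). *Npy* had 3 UMIs in CGE-marked barcodes against 423 in MGE barcodes, a ratio of 39.9 (exact 95% counting interval 13.5 to 194). *Nxph2* had 0 UMIs in CGE-marked barcodes of both libraries against 1034, which made it at least 97.4-fold higher at a floor of 3 counts over the group. *Ackr3* had 20.2 and 19.5 CPM (3.81 ± 0.30; adjusted p = 0.00547), *Grik1* 68.1 and 162 CPM (2.79 ± 0.40; adjusted p = 0.0313) and *Kcnmb2* 41.6 and 64.9 CPM (3.19 ± 0.32; adjusted p = 0.00727).

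*Erbb4* was abundant in both interneuron groups. It had 7331 and 11308 CPM in CGE-marked barcodes, and its log2 fold change of 0.69 ± 0.36 did not pass (adjusted p = 0.906). *Neto1*, encoding an auxiliary subunit of kainate and NMDA receptors, had 446 and 408 CPM in MGE barcodes against 12.6 and 13.0 CPM (4.92 ± 0.75; adjusted p = 0.0405). *Cntnap3* and *Dpp10* were higher by 4.23 ± 0.43 (adjusted p = 0.00727) and 4.35 ± 0.59 (adjusted p = 0.0278).

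The 10 genes lower than in CGE-marked barcodes were led by *Sorcs3* (556 and 675 CPM in CGE-marked barcodes; -4.82 ± 0.69; adjusted p = 0.0313) and *Nr3c2* (207 and 182 CPM; -4.64 ± 0.47; adjusted p = 0.00727). *Grin2a*, an NMDA receptor subunit gene, had 3 UMIs in MGE barcodes against 47 in CGE-marked barcodes, a ratio of 55.4 (exact 95% counting interval 17.8 to 278). The secreted factor genes *Wnt5a* and *Ntn1* fell by 2.67 ± 0.37 and 2.46 ± 0.34 (adjusted p = 0.0298 for both). *Pdzrn3*, a ubiquitin ligase gene, fell by 2.82 ± 0.27 (adjusted p = 0.00727), *Tshz1* by 1.95 ± 0.28 (adjusted p = 0.0315) and *Pax6*, a paired-box factor gene, by 1.80 ± 0.26 (adjusted p = 0.0313). *Fam171b* and *Cnr1*, the cannabinoid receptor gene of CGE-derived basket cells, fell by 1.82 ± 0.29 (adjusted p = 0.046) and 1.80 ± 0.27 (adjusted p = 0.0363). With 2500 to 40000 UMIs and under 5% mitochondrial UMIs, 16 genes remained past the threshold in this comparison, and 13 of the 21 called genes named here were lost.

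Against LGE-marked barcodes, 151 of 10028 genes were called (1.51%), 112 higher (1.12%) and 39 lower (0.389%) in MGE barcodes, and 150 had the same direction in both replicates. Of 12 tested MGE factors 6 were higher, with a median of 2.71. *Sox6* had 285 and 218 CPM in LGE-marked barcodes (log2 fold change 3.16 ± 0.35; adjusted p = 0.0076), *Satb1* 39.7 and 68.2 CPM (3.19 ± 0.45; adjusted p = 0.016) and *Maf* 24.5 and 40.9 CPM (4.09 ± 0.33; adjusted p = 0.00279). *Npas1* and *Npas3*, encoding PAS domain factors of interneurons, had 49.9 and 61.0 CPM against 3.38 and 0 CPM (3.52 ± 0.42; adjusted p = 0.00919) and 2651 and 2712 CPM against 395 and 941 CPM (2.29 ± 0.42; adjusted p = 0.04). In CGE-marked barcodes both stood near MGE levels, at 54.2 and 51.9 CPM and at 2765 and 3776 CPM.

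*Erbb4* and *Nrg3*, the neuregulin receptor and a neuregulin gene, were higher than in LGE-marked barcodes, with 1340 and 2004 CPM (log2 fold change 3.31 ± 0.39; adjusted p = 0.00919) and 209.5 and 286 CPM (3.55 ± 0.40; adjusted p = 0.0076) in the latter. *Ackr3* had 21.1 and 13.6 CPM in LGE-marked barcodes (3.84 ± 0.31; adjusted p = 0.00279). *Sst* had 9.29 and 0 CPM (5.06 ± 0.39; adjusted p = 0.00279), and *Npy* had 3 UMIs against 423, a ratio of 52.9 (exact 95% counting interval 18.0 to 257). *Nxph2* had 5 and 0 UMIs (5.86 ± 0.50; adjusted p = 0.00682), and *Elfn1* 3.38 and 0 CPM (3.62 ± 0.54; adjusted p = 0.0174).

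Receptor and channel genes were called in 2 of 10 tested GABA receptor, 4 of 17 glutamate receptor and 4 of 21 ion channel genes. *Gria1*, *Gria4* and *Grik1* were higher by 3.50 ± 0.66, 3.65 ± 0.48 and 2.87 ± 0.41 (adjusted p = 0.044, 0.0131 and 0.0163 in edgeR's quasi-likelihood test). *Gabra2* and *Gabrg3* were higher by 1.85 ± 0.28 and 1.96 ± 0.38 (adjusted p = 0.0196 and 0.0492). *Kcnc2*, *Kcnip1*, *Kcnmb2* and the P/Q-type calcium channel gene *Cacna1a* were higher by 3.63 ± 0.51, 2.24 ± 0.31, 3.06 ± 0.33 and 1.32 ± 0.25 (adjusted p = 0.0163, 0.0146, 0.0076 and 0.0484), and *Cntnap4*, a contactin-associated protein gene of interneuron synapses, by 3.21 ± 0.56 (adjusted p = 0.0337). *Cacna1a* lost its call with the replicate block (adjusted p = 0.0603), as did *Cdk1* (adjusted p = 0.0577), which fell by 2.19 ± 0.41 (adjusted p = 0.043) without it. Over all alternatives that gave a value, *Cacna1a* lost its call in 9 of 15 and *Cdk1* in 5 of 13.

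High fold changes against LGE-marked barcodes outside the lists included those of *Dpp10* (37.2 and 13.6 CPM in LGE-marked barcodes; 6.32 ± 0.68; adjusted p = 0.0076), *Dlgap2*, a postsynaptic scaffold gene (109 and 0 CPM; 5.13 ± 0.79; adjusted p = 0.0204), and *Zbtb16*, a zinc finger factor gene (5.07 and 0 CPM; 4.83 ± 0.40; adjusted p = 0.00292). *Dgkg*, a diacylglycerol kinase gene, had 2 UMIs there against 770, a ratio of 144 (exact 95% counting interval 39.8 to 1194). *Ism1* had 0 UMIs there against 150, which made it at least 18.8-fold higher at a floor of 3 counts over the group. *Zfhx3* had the lowest fold change, with 890.5 and 532 CPM in LGE-marked barcodes (-5.24 ± 0.73; adjusted p = 0.0155), and in CGE-marked barcodes it stood between the groups at 89.5 and 350 CPM. *Zfhx4* and *Insm1* fell by 3.75 ± 0.46 and 3.46 ± 0.61 (adjusted p = 0.00954 and 0.0342), and *Pde7b*, a phosphodiesterase gene of striatal neurons, by 3.06 ± 0.50 (adjusted p = 0.0275).

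Genes of dividing cells were among the 10 lowest. *Hist1h1b* and *Hist1h2ap*, which encode histones made in S phase, fell by 3.18 ± 0.53 and 3.09 ± 0.56 (adjusted p = 0.0287 and 0.04). *Knl1*, a kinetochore gene, fell by 3.13 ± 0.55 (adjusted p = 0.0347). Over the alternatives that gave a value, *Hist1h2ap* lost its call in 4 of 15, *Knl1* in 2 of 14 and *Hist1h1b* in 1 of 13. Leaving out progenitor barcodes was among the 4 for *Hist1h2ap*, and its log2 fold change lay between -3.74 and -0.33 over all settings. The noncoding RNA *D030068K23Rik*, *Slc18a2* and *Six3os1* completed the 10 lowest, with *D030068K23Rik* at 17.4 and 4.07 CPM against 150 and 81.8 CPM (-3.14 ± 0.54; adjusted p = 0.0337) and *Slc18a2* at 4.24 and 2.44 CPM against 54.9 and 40.9 CPM (-3.15 ± 0.43; adjusted p = 0.0145). *Six3os1* had 3 UMIs in MGE barcodes against 76 in LGE-marked barcodes, a ratio of 67.5 (exact 95% counting interval 22.3 to 335).

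**Figure D4:**
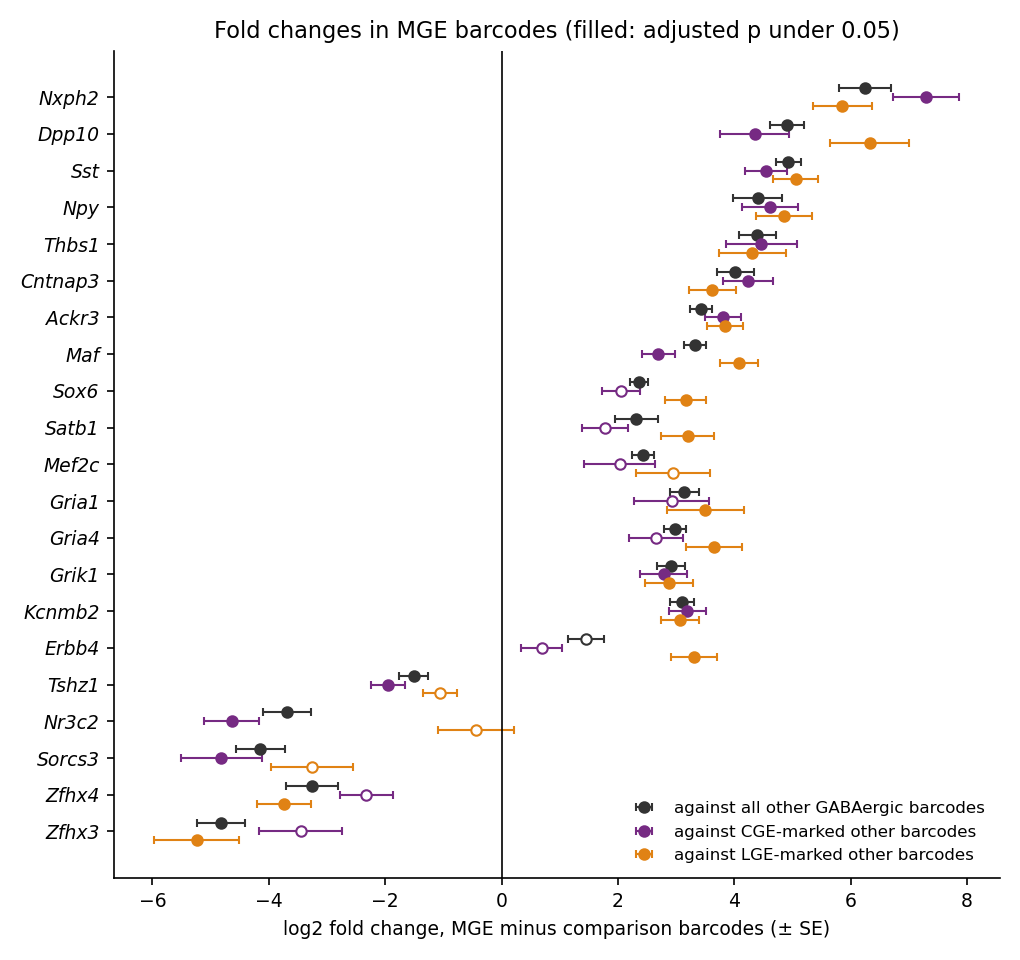
Log2 fold change (± SE) of 21 genes in MGE barcodes against all other GABAergic barcodes (black), CGE-marked barcodes (purple) and LGE-marked barcodes (orange), with filled points for adjusted p under 0.05. *Erbb4* lay at 1.45, 0.69 and 3.31, and values of genes with 0 to 3 UMIs in a gate, such as *Nxph2* and *Npy* in CGE-marked barcodes, depend on the prior count of the fit.

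MGE barcodes were not uniform. Over 5333 genes measured at 2000 UMIs per barcode, the median ratio of variance to mean was 1.07, near that of counting error alone. Globin genes had the highest ratios, carried by the few barcodes described above. Among the genes of the lists, high ratios were also found for *Adarb2*, with 17.0 and 25.2 in replicates 1 and 3, for *Meis2*, a homeobox gene shared by LGE and CGE cells, with 9.40 and 7.97, for *Erbb4* with 9.28 and 7.04, for *Epha5* with 8.39 and 7.72 and for *Sst* with 9.59 and 5.34. *Erbb4* and *Epha5* had UMIs in 98.6% and 100% and in 91.5% and 94.4% of these barcodes. Their means were 30.3 and 30.9 and 11.3 and 10.6 UMIs per barcode, and the part of level in their ratios was not tested. By their ratios at means of 1.02 and 0.244 and of 0.744 and 0.523 UMIs, *Adarb2* and *Meis2* were concentrated in some MGE barcodes.

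The CGE and LGE marks separated part of these barcodes. Among MGE barcodes, 41 of replicate 1 and 8 of replicate 3 were CGE-marked, 89 and 45 were LGE-marked, and 233 and 159 had no mark. In replicate 1 the CGE-marked MGE barcodes held *Nxph1* at 2425 CPM and *Lhx6* at 59.9 CPM, against 6664 and 246 CPM without a mark. Their *Maf* level was 137 CPM against 532 CPM and their *Sox6* level 1530 CPM against 2195 CPM. In replicate 3 the 8 CGE-marked barcodes held 342 CPM of *Maf* and 280 CPM of *Lhx6*, against 510 and 292 CPM without a mark, so the difference in *Lhx6* was seen in replicate 1 only.

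The LGE-marked MGE barcodes lay closer to the unmarked ones in *Nxph1* and *Sox6*. They held *Sox6* at 2054 and 2278 CPM, *Maf* at 538 and 276 CPM and *Nxph1* at 5737 and 4732 CPM. Their *Meis2* level was 426 and 949 CPM against 57.7 and 29.6 CPM without a mark, although *Meis2* was not among the marks. Striatal *Isl1* was at 2.95 and 2.19 CPM in them. Their median depth was 6353 and 8681 UMIs per barcode against 4255 and 4001 without a mark, and the part of depth in reaching a mark of 2 UMIs was not tested. Of the MGE barcodes 7 and 13 were predicted doublets.

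Barcodes with more *Lhx6* and *Nxph1* UMIs differed from those near the threshold. With 30 or more such UMIs (163 and 87 barcodes), *Adarb2* was at 53.6 and 14.3 CPM, whereas with 4 to 9 (44 and 30 barcodes) it was at 1574 and 1008 CPM. *Sox6* was at 2323 and 2320 CPM in the former and at 1441 and 1769 CPM in the latter, and *Erbb4* at 16609 and 14805 CPM and at 9845 and 12629 CPM. *Maf* differed in replicate 1, at 569 against 367 CPM, and less in replicate 3, at 419 against 330 CPM. The barcodes with 2 or 3 such UMIs numbered 19 and 8, and their *Adarb2* level of 3320 and 292 CPM differed widely between the libraries. Barcodes with 30 or more such UMIs were also deeper, at a median of 5988 and 6164 UMIs against 4021 and 2954 with 4 to 9.

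**Figure D5:**
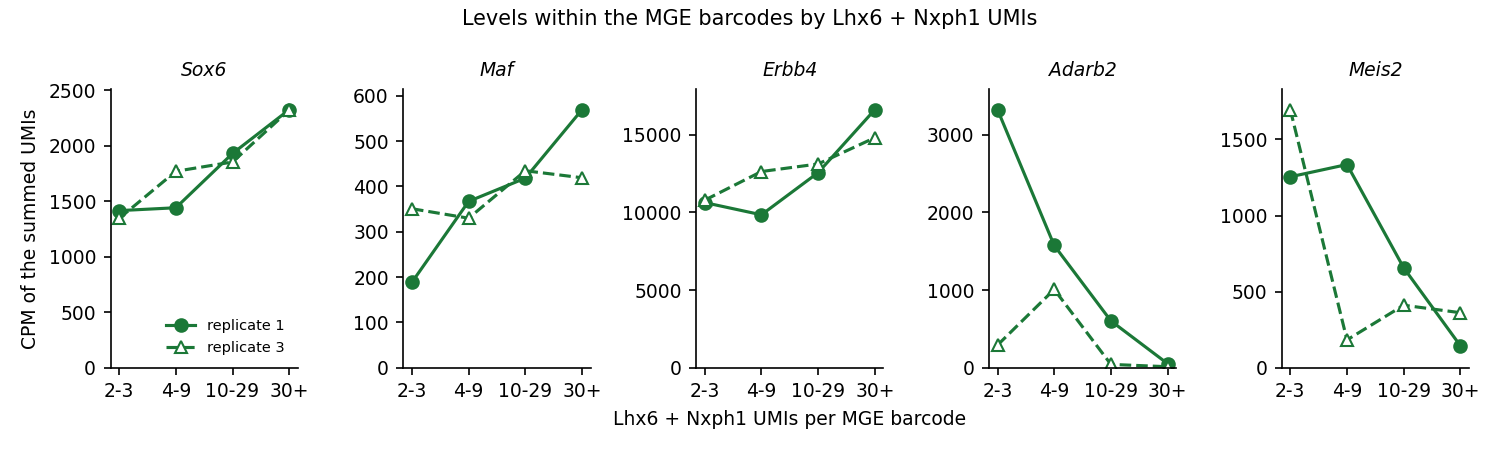
CPM of *Sox6*, *Maf*, *Erbb4*, *Adarb2* and *Meis2* in the summed UMIs of MGE barcodes with 2 to 3, 4 to 9, 10 to 29 and 30 or more *Lhx6* and *Nxph1* UMIs, for replicate 1 (filled circles) and replicate 3 (open triangles). *Sox6* was highest (2323 and 2320 CPM) and *Adarb2* lowest (53.6 and 14.3 CPM) in the group of 30 or more, and the first group rests on 19 and 8 barcodes.

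Pairs of genes were counted together at 2000 UMIs per barcode. *Sst* and *Npy* were found together in 24 of 352 MGE barcodes of replicate 1 and 11 of 197 of replicate 3, where the product of their shares gave 8.57 and 7.07 barcodes. *Nxph2* and *Sst* were found together in 16 and 13 barcodes against 17.8 and 17.8 from their shares, and *Nxph2* and *Npy* in 7 and 11 against 16 and 10.7. *Maf* and *Adarb2* met in 8 and 4 barcodes against 19.6 and 5.28. The excess for the 2 peptides was thus larger in replicate 1 than in replicate 3, and these counts are a description of the barcodes of 2 libraries.

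Some barcodes with *Lhx6* and *Nxph1* UMIs were left outside the gate. The 90 and 62 kept barcodes with *Lhx6* and *Nxph1* UMIs but under 3 GABAergic UMIs held *Erbb4* at 1172 and 1634 CPM, against 14319 and 13972 CPM in MGE barcodes. Their *Maf* level was 35.1 and 54.0 CPM. The 39 and 31 barcodes left out by the Neurod gate held *Erbb4* at 4441 and 5405 CPM, *Maf* at 150 and 127 CPM and *Sst* at 47.5 and 209.7 CPM, with a median of 16006 and 19659 UMIs per barcode.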

How the data were processed

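The authors produced UMI counts per gene and barcode with Cell Ranger 7.0.0, per the labels on mm10, and these deposited counts were used unchanged. The annotation, intron setting and cell calling are not given in the sources used here. Both matrices hold 32285 features.

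Barcodes were gated on raw UMIs as described above, and UMIs were summed per gate and replicate. CPM are UMIs per 1000000 UMIs of a sum, without TMM factors. Sums were compared with edgeR 4.0.16 (R 4.3.3; quasi-likelihood test, TMM scaling, filterByExpr, prior count 2, Benjamini-Hochberg adjustment over all genes tested, threshold 0.05). The SE was taken as |log2 fold change| divided by √F. The script was tested on simulated data, where the share of false calls was above the adjusted threshold. Equal replicate numbers mark the same library and therefore pair the sums. The correlation of paired deviations across genes was 0.162 for MGE and other, 0.124 for MGE and CGE-marked and 0.0950 for MGE and LGE-marked sums. The fit without a block was the main one.

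Named genes are those of 23 gene lists, plus the 10 highest and 10 lowest log2 fold changes per comparison among genes with an adjusted p under 0.05, the same direction in both replicates and a mean of at least 20 CPM. *C1qa* and *C1qb* belong to the lists. Some listed genes are not reported here. The members and lists were chosen with earlier results of these data known. Shares have 95% Wilson intervals. Doublets were kept in the main analysis, and an alternative removed the highest Scrublet scores at 0.8% per 1000 barcodes. Motifs were searched in the 250 bases before RefSeq starts (GRCm38.p6), 1 chromosome left out. *Lhx6*-led barcodes were too few (6 and 0) for the planned comparison with *Nxph1*-led barcodes. Further alternatives varied the scaling, tool (DESeq2 1.42.0), filters, gates, depth and replicates. Software was Python, numpy, pandas, scipy and matplotlib.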

Additional observations from a re-analysis of the deposited data

How the results depend on the processing

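No gene given with a fold change in the report changed direction under any of the 15 alternatives with a test, and in 1 replicate alone only *Foxp1* did (0.26 without replicate 1). Of the named called genes, 15 of 44 against other GABAergic barcodes, 8 of 21 against CGE-marked and 22 of 38 against LGE-marked barcodes passed under every alternative that gave a value.

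Counts of calls moved more. Against other GABAergic barcodes 183 genes became 359 with each barcode thinned to 1500 UMIs, 72 with the gate applied to counts thinned to 1500 UMIs, 275 with barcodes of 3000 to 10000 UMIs, 72 with 2500 to 40000 UMIs and under 5% mitochondrial UMIs, 398 without predicted doublets, 870 without CGE- or LGE-marked MGE barcodes (chosen after seeing the data) and 962 with no filter on low counts. Under the same settings 41 genes against CGE-marked barcodes became 172, 292, 175, 16, 60 (within 1.5 times), 128 and 310, and 151 against LGE-marked barcodes became 359, 509, 375, 71, 280, 481 and 729. With at least 6 GABAergic UMIs these 2 comparisons gave 137 and 373, with *Neurod2* and *Neurod6* at 0 they gave 101 and 261, without progenitor barcodes 234 and 429, and without barcodes of 10 or more globin UMIs (chosen after seeing the data) 91 and 279. The replicate block, which is the paired fit, gave 423, 77 and 199. The number of listed genes called against other GABAergic barcodes, 34, became 68, 18, 55, 84, 121 and 69 with thinning to 1500 UMIs, the thinned gate, doublets removed, marked MGE barcodes left out, no filter and the replicate block. The cause of these moves was not tested.

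DESeq2 called 230 genes against other GABAergic barcodes, 136 higher and 94 lower, in place of 129 and 54. Library sizes without TMM shifted the median of all genes by -0.10 and called 168, 109 higher and 59 lower. The share of MGE barcodes averaged 4.74% of kept barcodes, with 2.83% to 6.66% in 1 replicate alone, and 67.3% of GABAergic barcodes, with 51.1% to 83.5%. At 1500 and 3000 UMIs per barcode, *Maf* was detected in 44.3% and 64.2% of MGE barcodes in place of 55.2%, *Ackr3* in 37.5% and 55.1% in place of 48.6%, *Npy* in 11.2% and 18.5% in place of 14.7%, and *Nxph2* in 40.6% at 3000 in place of 33.9%.

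With 2 libraries, the values of 1 replicate alone have no test. Replicate 3 held 42 other GABAergic barcodes, 9 of them LGE-marked, so a gene lower in MGE barcodes rests mainly on replicate 1. In simulated data the share of false calls was above the adjusted threshold. The comparison of *Nxph1*-led with *Lhx6*-led barcodes was not run.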
